A study of Drosophila melanogaster with 12 samples.

Results

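In Piwi immunoprecipitates from a Drosophila ovarian cell line, 62 of the 17469 genes counted gave fewer Piwi-bound small RNA reads per library read with each of 2 mutant rescue proteins than with the matching wild-type protein. The genes were chosen by these measured values. The mean level of a gene, in RPM, which are reads scaled to the library total, had to be at most 0.6 times the wild-type mean with the Daedalus variant deltaSAM, and likewise with the Armitage variant KEE. It also had to reach at least 20 RPM in the higher group of each pair. Genes of ribosomal proteins and of translation initiation or elongation factors were left out, as were symbols with a colon. A further 9 noncoding genes met the limits, with ratios of 0.250 to 0.553 with deltaSAM and 0.194 to 0.566 with KEE, and were left out by their names. Of 2615 genes at that level with an allowed name, 258 (9.87%) met the deltaSAM limit and 319 (12.2%) met the KEE limit. The 62 genes made up 24% of the deltaSAM set and 19.4% of the KEE set. The opposite pattern, with both ratios at least the inverse of the limit, was met by 173 genes. The choice depended on the scale: 123 genes, all 62 among them, met the limits with values scaled to the gene-table total, and 49 met them with libraries centred on the median gene. Under that centring 30 of the 62 were kept and 32 dropped out, among them Dcr-2, Su(var)2-10, Tollo, pgc, Myd88, Nlp, Sur, Npc1a, CG17698 and CG31875.

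PIWI-interacting RNAs (piRNAs) are small RNAs that guide Piwi to silence transposons. In the somatic cells of the fly ovary they are cut from long precursors at the surface of mitochondria by the nuclease Zucchini. The RNA helicase Armitage (Armi) brings precursors there, and Daedalus (Daed) is a protein of the outer mitochondrial membrane that helps hold Armi in place. Some precursors come from transposon-rich clusters, and others are the messenger RNAs of ordinary genes, whose piRNAs stem mostly from the untranslated tail.

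All 12 libraries came from ovarian somatic cells (OSC), a line cultured from Drosophila melanogaster ovary, in 4 groups of 3. The deltaSAM group had Daed knocked down and carried Flag-Daed without its SAM domain, and the Daed WT group had the same knockdown with wild-type Flag-Daed. The KEE group had Armi knocked down and carried a Flag-tagged Armi mutant labelled KEE, a name the labels do not explain, and the Armi WT group had the same knockdown with Flag-tagged wild-type Armi. Every group, the WT ones included, thus combined an siRNA knockdown with an overexpressed, tagged protein. The rescue plasmid was introduced together with siRNA 48 h after the first knockdown, and cells were harvested another 48 h later. Piwi was then pulled down with an antibody, and bound RNAs of 20 to 40 nucleotides were sequenced. The labels do not say that the 3 replicates were separate cultures, so spreads and p-values cover only these samples.

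The libraries held 1396369 to 3995009 reads, so 20 RPM stood for 27.9 to 79.9 reads. Genes took 58.0 ± 0.598% of the reads with deltaSAM and 50.2 ± 0.812% with Daed WT (SD, n = 3). They took 79.5 ± 0.251% with KEE and 63.4 ± 1.32% with Armi WT. The 5 ovarian soma markers, genes known for piRNAs or expression there, had reads in every library and moved with the groups. Their summed level was 36467 to 38928 RPM with deltaSAM and 33243 to 37131 RPM with Daed WT, and 21109 to 21555 RPM with KEE and 34001 to 35614 RPM with Armi WT. The cluster flam averaged 20269 RPM with deltaSAM and 27237 RPM with Daed WT, and 8702 RPM with KEE and 20852 RPM with Armi WT. tj averaged 16229 RPM with deltaSAM and 7791 RPM with Daed WT, and 8669 RPM with KEE and 12911 RPM with Armi WT. zfh1 averaged 508 RPM with deltaSAM and 398 RPM with Daed WT, and 3359 RPM with KEE and 508 RPM with Armi WT. piwi averaged 505 RPM with deltaSAM and 205.1 RPM with Daed WT, and 517 RPM with KEE and 513 RPM with Armi WT. fs(1)Yb was at 30.0 to 128 RPM over all libraries. The part of these shifts in the change of the 62 genes was not tested. Of the germline markers, nos was not found under that symbol among the counted genes. The germline genes vas, aub, AGO3, bam and rhi stayed at or below 9.39 RPM, with vas and rhi at 0 in some libraries, and summed to 13.1 to 23.2 RPM with deltaSAM, 9.31 to 15.8 RPM with Daed WT, 12.5 to 13.8 RPM with KEE and 15.4 to 17.0 RPM with Armi WT. These are piRNA reads and not transcript levels. Replicate 3 of deltaSAM and replicate 3 of Armi WT stood apart, with a chi-square per gene of 4.98 to 6.10 against the other replicates of their group. Other pairs within a group gave 1.22 to 2.18. Without these 2 libraries 53 genes met the rule, 48 of them among the 62. The 14 genes that dropped out were CG30183, CG6790, CG8701, Irp-1B, Mekk1, Myd88, Nadk1a, Nlp, PIG-V, Su(var)2-10, Sur, miple2, pgc and rempA. No ratio of the 62 genes went above 0.682 in either pair without those libraries.

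Together the 62 genes held 5066 ± 195 RPM with deltaSAM, against 10701 ± 433 RPM with Daed WT (mean ± SD, n = 3). They held 4206 ± 122 RPM with KEE, against 9843 ± 271 RPM with Armi WT. As a share of the reads assigned to genes this came to 0.873% with deltaSAM and 2.13% with Daed WT, and to 0.529% with KEE and 1.55% with Armi WT. The median ratio of the 62 genes was 0.510 for deltaSAM over WT, with a range of 0.0551 to 0.599, against a median of 1.14 over the 2615 genes. For KEE over WT the median was 0.429, with a range of 0.143 to 0.595, against 1.37 over the 2615 genes. The ratio was at most 0.5 in 27 genes with deltaSAM, in 40 with KEE and in 19 with both. In all 62 genes the 3 deltaSAM libraries lay below the 3 Daed WT libraries, which held for 24.5% of the 2615 genes. The 3 KEE libraries lay below the 3 Armi WT libraries in all 62 as well, against 26.0% of the 2615. All 62 genes passed the filter on low values of the fit across genes, and all 62 were called lower in both pairs, where 18.9% of 8246 tested genes were lower with deltaSAM and 11.7% with KEE (adjusted p under 0.05), out of 36.2% and 44.7% called in either direction. Since the ratios chose the genes, these counts describe the choice and test nothing. RPM is a relative unit, so an absolute loss of piRNAs was not tested. In bulk libraries, fewer cells making the piRNAs of a gene and fewer piRNAs per cell cannot be told apart.

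**Figure D1:**
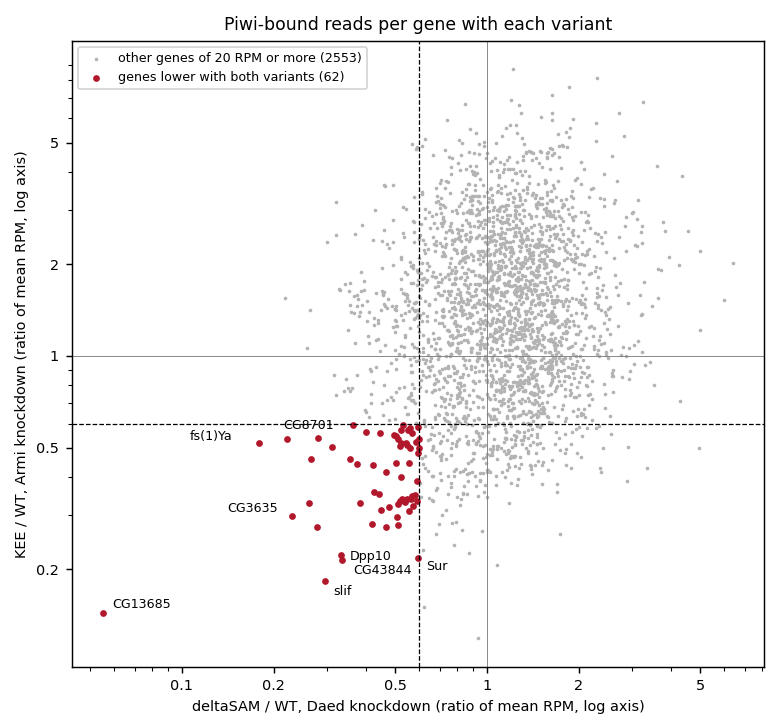
Each point is a gene that reached 20 RPM in 1 or both groups of each pair, with the ratio of mean RPM for deltaSAM over WT on the x axis and for KEE over WT on the y axis, both logarithmic. The 62 genes (dark red) fill the corner below the 0.6 limits (dashed), from CG13685 at 0.0551 and 0.143 up to the limits, and the other 2553 genes (grey) spread around the lines at 1.

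CG13685 (FBgn0035816, dm6 3L:7747344-7750552), a gene known only by its number, had the lowest ratio in each pair. It gave 2.35, 3.81 and 1.66 RPM with deltaSAM, against 44.9, 51.9 and 45.1 RPM with Daed WT. It gave 5.31, 2.98 and 2.50 RPM with KEE, against 27.7, 22.3 and 25.2 RPM with Armi WT. Every mutant library of CG13685 lay far below every WT library, and the Armi WT libraries lay below the Daed WT libraries. The ratios were 0.0551 with deltaSAM and 0.143 with KEE, and the deltaSAM group held only 14 reads of this gene in all. slif (FBgn0037203, dm6 3L:22881045-22893821) encodes a transporter of cationic amino acids that feeds growth signalling in the fly fat body. It gave 32.9, 34.3 and 26.5 RPM with deltaSAM, against 116, 92.7 and 110.3 RPM with Daed WT. With the Armi proteins slif gave 19.1, 16.8 and 20.3 RPM with KEE, against 109, 99.3 and 97.6 RPM with Armi WT. The mutant libraries of both experiments lay far below every WT library, and the KEE libraries were the lowest. The slif ratios were 0.294 with deltaSAM and 0.183 with KEE.

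Among the other genes with the lowest ratios, CG3635 (FBgn0032981, dm6 2L:22175415-22183991) gave 45.3, 53.4 and 46.4 RPM with deltaSAM, against 215, 210.2 and 207 RPM with Daed WT. Under the Armi proteins CG3635 gave 63.5, 63.8 and 43.8 RPM with KEE, against 169.5, 181 and 222 RPM with Armi WT. The highest mutant library was below the lowest WT library in each pair by a wide gap, with ratios of 0.230 with deltaSAM and 0.299 with KEE. CG5687 (FBgn0035293, dm6 3L:1933633-1939103) gave 62.3, 64.3 and 64.1 RPM with deltaSAM, against 234, 209 and 243 RPM with Daed WT. Its values under the Armi proteins were 81.2, 63.6 and 56.1 RPM with KEE, against 217, 218 and 293 RPM with Armi WT. The deltaSAM and KEE libraries of CG5687 overlapped with each other, as did the WT libraries of both experiments, and its ratios were 0.278 with deltaSAM and 0.276 with KEE. CG43844 (FBgn0264426, dm6 3R:21889539-21890171) gave 41.1, 35.9 and 34.2 RPM with deltaSAM, against 109.6, 103 and 120.3 RPM with Daed WT. For KEE the values of CG43844 were 18.9, 19.5 and 18.8 RPM, against 86.7, 86.1 and 93.8 RPM with Armi WT. Here all KEE libraries were lower than all deltaSAM libraries, and the ratios were 0.335 with deltaSAM and 0.214 with KEE. CG11635 (FBgn0033283, dm6 2R:8358538-8359472) gave 18.8, 28.3 and 33.1 RPM with deltaSAM, against 79.5, 113 and 115 RPM with Daed WT. CG11635 gave 15.9, 13.8 and 12.3 RPM with KEE, against 37.9, 39.0 and 50.9 RPM with Armi WT. The 2 WT groups did not overlap, the Armi WT libraries being the lower ones, and the ratios were 0.261 with deltaSAM and 0.329 with KEE.

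**Figure D2:**
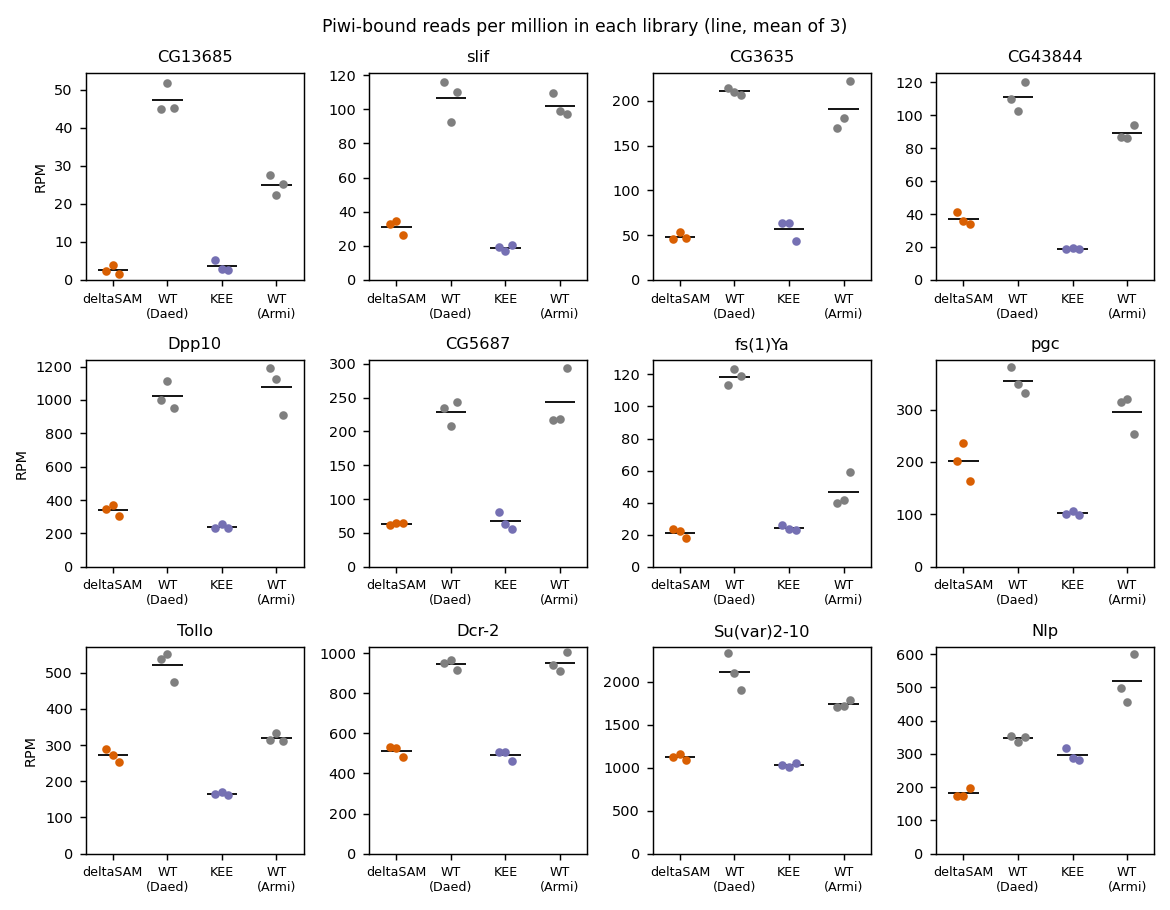
RPM in each library (points) and the mean of 3 (line) for 12 of the 62 genes, with deltaSAM and Daed WT on the left and KEE and Armi WT on the right of each panel, on linear axes from 0. No mutant point reaches the WT points beside it. For Dcr-2 the ranges of both experiments overlap (means of 512 and 493 RPM with the mutants, 943 and 950.2 RPM with WT), and for fs(1)Ya the Armi WT mean of 46.8 RPM lies below the Daed WT mean of 119 RPM.

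The genes were sorted into roles by hand from general knowledge, after their values had been seen, and values outside the naming rule are given for genes picked at that stage. Genes with only a CG number or no symbol formed a class of their own, whatever their function. The counts and medians of the other roles leave them out. Genes placed under membrane transport numbered 5, with a median ratio of 0.511 with deltaSAM and 0.341 with KEE. Besides slif they were gb, which exchanges cystine for glutamate, Sur, a sulfonylurea receptor of the ABC transporter family, Npc1a, which moves sterols out of the endosome, and the zinc transporter ZnT41F. gb (FBgn0039487, dm6 3R:27108467-27112270) gave 19.4, 15.8 and 16.6 RPM with deltaSAM, against 38.2, 35.3 and 43.0 RPM with Daed WT. With KEE, gb gave 20.7, 17.3 and 16.8 RPM, against 43.9, 54.8 and 56.1 RPM with Armi WT. The gb libraries of the mutants covered nearly the same range in both experiments, and its ratios were 0.444 with deltaSAM and 0.354 with KEE. The ratios of ZnT41F were 0.511 with deltaSAM and 0.532 with KEE, the closest to each other within this role.

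Signalling genes numbered 5, with median ratios of 0.559 with deltaSAM and 0.498 with KEE. Tollo (FBgn0029114, dm6 3L:15235619-15242832), a Toll family receptor that also acts in tissue shape, gave 289, 272 and 254 RPM with deltaSAM, against 539, 552 and 473 RPM with Daed WT. Its Armi values were 164, 170.4 and 162 RPM with KEE, against 314, 334 and 313 RPM with Armi WT. Tollo was lower in every mutant library than in any WT library, and the ratios were nearly equal at 0.521 with deltaSAM and 0.516 with KEE. Myd88 (FBgn0033402, dm6 2R:9302823-9308722), the adaptor that links Toll receptors to NF-kappaB, gave 68.8, 75.1 and 56.9 RPM with deltaSAM, against 114, 122 and 108 RPM with Daed WT. Myd88 gave 39.3, 38.9 and 30.8 RPM with KEE, against 106, 101 and 105 RPM with Armi WT. The WT groups of Myd88 lay close together without overlap, and the KEE libraries were all below the deltaSAM libraries. The other members of this role were the kinase gene Mekk1 at 0.559 and 0.580, the growth-blocking peptide gene Gbp2 at 0.507 and 0.296, and the midkine-like growth factor gene miple2 at 0.559 and 0.498 (deltaSAM ratio, then KEE ratio).

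Small RNA, chromatin and nuclear genes numbered 10, with median ratios of 0.537 with deltaSAM and 0.477 with KEE. Su(var)2-10 and Dcr-2 had the highest mean RPM of the 62 genes, not corrected for length. Su(var)2-10 (FBgn0003612, dm6 2R:9116122-9122000) encodes a SUMO ligase that acts with Piwi in heterochromatin formation. It gave 1131, 1158 and 1087 RPM with deltaSAM, against 2340.3, 2105 and 1901 RPM with Daed WT. Su(var)2-10 gave 1029.7, 1007 and 1051 RPM with KEE, against 1713, 1716 and 1793 RPM with Armi WT. Every mutant library lay below every WT library across both experiments. The ratio with KEE, 0.591, stood just under the limit, and that with deltaSAM was 0.532. Dcr-2 (FBgn0034246, dm6 2R:17574979-17581525) encodes the Dicer that makes small interfering RNAs. It gave 529.6, 525 and 480.4 RPM with deltaSAM, against 950.2, 966 and 914 RPM with Daed WT. Dcr-2 gave 509, 506 and 463 RPM with KEE, against 938, 909 and 1003 RPM with Armi WT. The mutant groups of both experiments overlapped, and so did the WT groups. Its ratios were 0.543 with deltaSAM and 0.518 with KEE.

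pgc (FBgn0016053, dm6 2R:22330200-22332813), which holds back RNA polymerase II in the pole cells of the embryo, gave 203, 237 and 165 RPM with deltaSAM, against 380.3, 349 and 332 RPM with Daed WT. It gave 101, 107 and 98.9 RPM with KEE, against 315, 320.3 and 253 RPM with Armi WT. The deltaSAM libraries of pgc spread widely and the KEE libraries lay tightly below them. Nlp (FBgn0016685, dm6 3R:30004785-30010352), a nucleoplasmin-like histone chaperone, gave 175, 172 and 197 RPM with deltaSAM, against 353, 336 and 351 RPM with Daed WT. Nlp gave 319, 289 and 281 RPM with KEE, against 499, 456 and 600.04 RPM with Armi WT. Its KEE libraries were higher than its deltaSAM libraries, and its Armi WT libraries were higher than its Daed WT libraries. Ice1 (FBgn0034853, dm6 2R:23366866-23371459), a part of the little elongation complex that serves small nuclear RNA genes, gave 54.7, 49.0 and 57.4 RPM with deltaSAM, against 123, 130.2 and 130.3 RPM with Daed WT. Ice1 gave 31.9, 34.1 and 31.0 RPM with KEE, against 109, 115 and 121 RPM with Armi WT. The groups were tight, with the KEE libraries below the deltaSAM libraries, and its ratios were 0.420 with deltaSAM and 0.281 with KEE. The ratios of the remaining members were between 0.518 and 0.564 with deltaSAM for the nucleoporin gene Nup154, the checkpoint clamp gene Hus1-like, the polymerase II subunit gene Polr2G and the methyltransferase gene Mettl4. With KEE they were 0.508 for Nup154, 0.310 for Hus1-like, 0.446 for Polr2G and 0.338 for Mettl4.

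Genes of protein folding, secretion and processing numbered 9, with median ratios of 0.465 with deltaSAM and 0.402 with KEE. Dpp10 (FBgn0031835, dm6 2L:6568400-6601068), of the dipeptidyl peptidase family, gave 348, 368 and 303 RPM with deltaSAM, against 1001, 1113 and 954 RPM with Daed WT. Dpp10 gave 231, 255 and 235 RPM with KEE, against 1190.5, 1123 and 910.4 RPM with Armi WT. Its KEE libraries lay below its deltaSAM libraries, and the ranges of its 2 WT groups overlapped. The ratios were 0.332 with deltaSAM and 0.223 with KEE. This role also held ATP6AP2 (an accessory protein of the vacuolar proton pump), the GPI anchor genes PIG-V and PIG-Wa, the chaperonin gene CCT6, the peptide-amidating enzyme gene Phm, the protease gene ste24b, the signal recognition particle gene Srp54k and the prefoldin-like Uxt. Their ratios ran between 0.356 (CCT6) and 0.590 (Srp54k) with deltaSAM, and between 0.276 (ATP6AP2) and 0.557 (Uxt) with KEE.

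Metabolic and iron genes numbered 6, with median ratios of 0.477 with deltaSAM and 0.438 with KEE. They were AsnS, which makes asparagine, with ratios of 0.382 with deltaSAM and 0.329 with KEE, the coenzyme Q gene Pdss2, the NAD kinase gene Nadk1a, the cytochrome P450 genes Cyp6a23 and Cyp28d2, and the iron regulatory gene Irp-1B. Cyp28d2 had the lowest KEE ratio of these, 0.280, with 0.509 for deltaSAM. The cytoskeleton and cilia genes numbered 4, with median ratios of 0.481 with deltaSAM and 0.487 with KEE. They were Fim, an actin bundling protein, Mlp84B, a muscle LIM protein, rempA, of intraflagellar transport, and sced, which acts on furrows in the early embryo. rempA (FBgn0260933, dm6 2L:553742-560310) gave 12.3, 17.4 and 19.9 RPM with deltaSAM, against 53.0, 39.7 and 43.7 RPM with Daed WT. rempA gave 15.4, 12.7 and 15.5 RPM with KEE, against 25.1, 22.3 and 26.0 RPM with Armi WT. Its KEE libraries overlapped with its deltaSAM libraries, and its Armi WT libraries lay below its Daed WT libraries. sced (FBgn0013732, dm6 2R:6657326-6660624) gave 60.5, 63.2 and 77.3 RPM with deltaSAM, against 115, 102 and 119.6 RPM with Daed WT. sced gave 87.1, 84.4 and 85.1 RPM with KEE, against 147, 155 and 179 RPM with Armi WT. Here the Armi libraries of either kind lay above the Daed libraries of the same kind.

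The last 23 genes had only a CG number or, in 1 case, no symbol, and had median ratios of 0.494 with deltaSAM and 0.418 with KEE. Besides those given above, CG2898 had ratios of 0.265 with deltaSAM and 0.460 with KEE, CG10472 of 0.311 with deltaSAM and 0.502 with KEE and CG42259 of 0.513 with deltaSAM and 0.327 with KEE. The gene without a symbol, FBgn0038893, averaged 18.4 ± 3.36 RPM with deltaSAM and 32.5 ± 2.97 RPM with Daed WT. It averaged 19.1 ± 1.65 RPM with KEE and 34.2 ± 1.08 RPM with Armi WT. CG30183 (FBgn0050183, dm6 2R:23690247-23697824) gave 45.3, 47.9 and 42.5 RPM with deltaSAM, against 78.0, 74.5 and 74.5 RPM with Daed WT. CG30183 gave 34.8, 32.5 and 37 RPM with KEE, against 73.4, 67.7 and 68.6 RPM with Armi WT. The WT groups of CG30183 lay close together without overlap, and the KEE libraries were below the deltaSAM libraries. The highest ratios of the CG genes were 0.598 (CG30183) with deltaSAM and 0.583 (CG18011) with KEE.

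**Figure D3:**
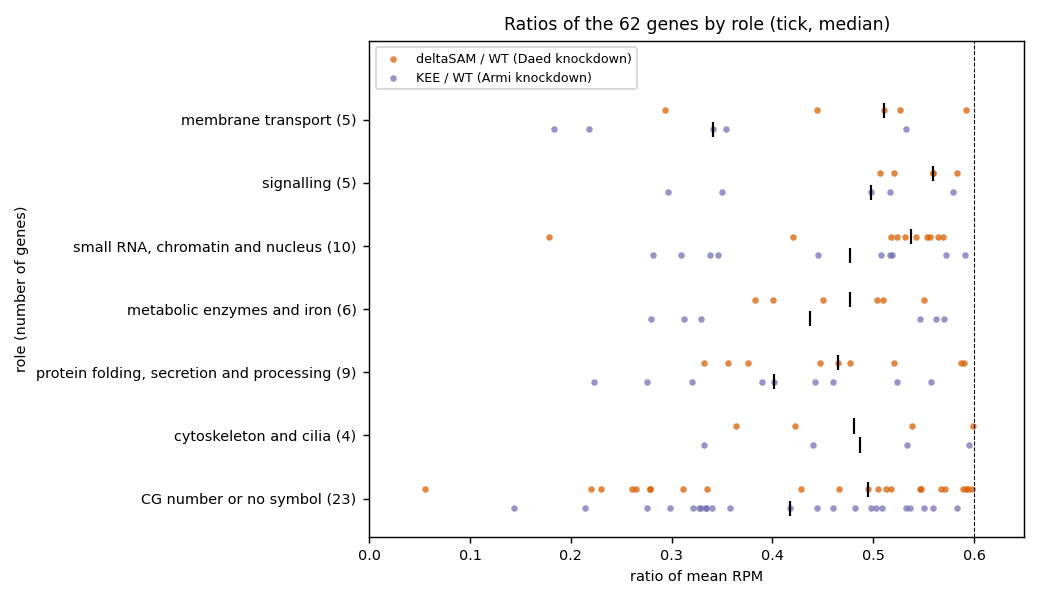
Ratios of mean RPM (linear x axis) of the 62 genes by role, with deltaSAM over WT above KEE over WT in each row and the median as a black tick; the dashed line is the 0.6 limit. The medians lie between 0.465 and 0.559 with deltaSAM and between 0.341 and 0.498 with KEE.

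Whether both variants lowered a gene to the same degree was not part of the rule, which sets one upper limit for both ratios. The difference of the log2 effects (KEE over Armi WT minus deltaSAM over Daed WT, on log2(RPM + 1)) was tested with limma over all 12 libraries and 8246 genes, with Benjamini-Hochberg adjustment over all genes. Of the 62 genes, 20 were lower, meaning a deeper reduction with KEE, where 11.0% of all tested genes were called lower. Another 7 were higher, meaning a deeper reduction with deltaSAM, where 29.4% of all tested genes were called higher. The 27 genes called in either direction compare with 40.4% of all tested genes, and the remaining 35 passed in neither. The libraries are those that chose the genes, so the values are not independent of the choice, and both effects are bounded by the rule. Over the 2615 genes the median ratio was 1.14 with deltaSAM and 1.37 with KEE. The shared limit lay further below the KEE median, so the rule itself can favour lower over higher calls. Its share in the split was not tested. The median difference was -0.15 over the 62 genes, 0.44 over all tested genes and 0.29 over tested genes that met the floor of 20 RPM. The tested genes went down to 1 RPM, so their shares are not matched to the 62 genes in level. Among genes of at least 10 RPM in at least 3 libraries, 20.2% were lower and 47.0% higher. In that fit 21 of the 62 genes were lower and 7 higher. The split rested on the scaling. It was 1 higher and 44 lower after centring libraries on the median gene, 2 and 42 in edgeR under TMM scaling, 2 and 38 with DESeq2, and 5 and 22 with values scaled to the gene-table total. Centring moved the median difference of all genes to -0.03 and that of the 62 genes to -0.77. Without replicate 3 of deltaSAM and of Armi WT it was 12 higher and 20 lower.

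The KEE reduction exceeded the deltaSAM reduction most at Sur (FBgn0028675, dm6 2L:10182557-10199117). Sur gave 39.4, 47.4 and 39.8 RPM with deltaSAM, against 80.5, 62.9 and 70.2 RPM with Daed WT. Sur gave 28.9, 28.1 and 30.0 RPM with KEE, against 127, 128 and 145 RPM with Armi WT in the other experiment. Its deltaSAM ratio of 0.592 lay just inside the limit, and its KEE ratio was 0.218. The difference was -1.42 ± 0.18 on the log2 scale (SE; adjusted p = 1.25e-07, limma). CG31875 (FBgn0051875, dm6 2L:9995561-10002736) gave 144, 143 and 135 RPM with deltaSAM, against 249, 244 and 246 RPM with Daed WT. Its other values were 74.3, 75.2 and 73.8 RPM with KEE, against 230.4, 219 and 246 RPM with Armi WT. The WT ranges of CG31875 overlapped slightly, and the KEE libraries lay well below the deltaSAM libraries, with a difference of -0.82 ± 0.13 (adjusted p = 4.81e-06, limma). CG17698 (FBgn0040056, dm6 3L:23737960-23749058) gave 152, 146 and 149.6 RPM with deltaSAM, against 252, 249 and 259 RPM with Daed WT. The Armi proteins gave 107, 113 and 97.9 RPM of CG17698 with KEE, against 306, 309.6 and 338 RPM with Armi WT. The WT values were higher and the mutant values lower in the Armi experiment, and the difference was -0.81 ± 0.13 (adjusted p = 4.86e-06, limma). Npc1a (FBgn0024320, dm6 2L:10213812-10221216) gave 117, 119 and 119 RPM with deltaSAM, against 219, 242 and 213 RPM with Daed WT. Npc1a gave 86.8, 97.4 and 81.6 RPM with KEE, against 265, 274 and 240.3 RPM with Armi WT. Its difference was -0.63 ± 0.14 (adjusted p = 4.24e-04, limma).

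Further named genes with a deeper reduction under KEE were Myd88 (-0.72 ± 0.17, adjusted p = 0.00124), pgc (-0.69 ± 0.16, adjusted p = 6.87e-04) and slif (-0.65 ± 0.19, adjusted p = 0.00632, limma). CG43844 (-0.61 ± 0.17, adjusted p = 0.00532), Dpp10 (-0.56 ± 0.13, adjusted p = 0.00122) and Ice1 (-0.56 ± 0.16, adjusted p = 0.00468, limma) went the same way. These 10 genes kept their call and direction under all 23 alternatives tried. By role, 3 of 5 transport genes were called lower, as were 1 of 6 metabolic and 1 of 5 signalling genes. Both directions occurred among the folding and processing genes (4 of 9 lower, 1 higher), the nuclear genes (4 of 10 lower, 1 higher), the cytoskeleton and cilia genes (1 of 4 lower, 1 higher) and the CG genes (6 of 23 lower, 4 higher). The shares to read these against are 11.0% lower and 29.4% higher over all tested genes, and 32.3% and 11.3% over the 62. Over genes of at least 10 RPM in at least 3 libraries they were 20.2% lower and 47.0% higher.

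In the other direction fs(1)Ya (FBgn0000927, dm6 X:2724286-2726577), a nuclear envelope protein needed for the first embryonic divisions, gave 23.5, 22.3 and 17.7 RPM with deltaSAM, against 113, 124 and 119 RPM with Daed WT. It gave 26.3, 23.5 and 22.8 RPM with KEE, against 39.7, 41.5 and 59.1 RPM with Armi WT. The mutant libraries of both experiments lay in 1 narrow range, and all Daed WT libraries stood far above all Armi WT libraries. The difference of the effects was 1.54 ± 0.21 (adjusted p = 8.31e-07, limma). CG8701 (FBgn0033287, dm6 2R:8371073-8372142) gave 24.1, 22.3 and 13.3 RPM with deltaSAM, against 84.6, 84.4 and 102 RPM with Daed WT. CG8701 gave 15.9, 17.0 and 23.0 RPM with KEE, against 32.1, 24.8 and 48.2 RPM with Armi WT. Armi WT replicate 3 was its highest library in that group, and the difference was 1.32 ± 0.29 (adjusted p = 4.78e-04, limma), with an adjusted p of 0.0622 after centring. CG9743 (FBgn0039756, dm6 3R:30196360-30202998) gave 20.0, 25.6 and 26.0 RPM with deltaSAM, against 98.4, 85.5 and 73.0 RPM with Daed WT. It gave 23.4, 14.3 and 18.0 RPM with KEE, against 31.3, 35.5 and 36.9 RPM with Armi WT. The difference was 0.92 ± 0.23 (adjusted p = 0.00223, limma). That of CG13685 was 1.24 ± 0.35 (adjusted p = 0.00564, limma). CG9743 and CG13685 lost their calls with centring, TMM factors and DESeq2. rempA (0.71 ± 0.25, adjusted p = 0.0268, limma) lost its call in 9 of 23 alternatives. These were the 4 that rescale the libraries by their genes, and those without replicate 1 of deltaSAM, of Daed WT or of KEE, replicate 3 of KEE or replicate 2 of Armi WT, where the adjusted p was 0.0610 to 0.0928 (limma).

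Several of the 62 genes showed no call for the difference. It was -0.06 ± 0.11 for Dcr-2 (adjusted p = 0.679), -0.01 ± 0.12 for Tollo (adjusted p = 0.953) and -0.02 ± 0.18 for CG5687 (adjusted p = 0.947, limma). For Su(var)2-10 it was 0.15 ± 0.11 (adjusted p = 0.290) and for Nlp 0.14 ± 0.13 (adjusted p = 0.448, limma). These values do not show equal effects, since Dcr-2 was called lower with KEE when libraries were centred on the median gene or rescaled by TMM or DESeq2.

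**Figure D4:**
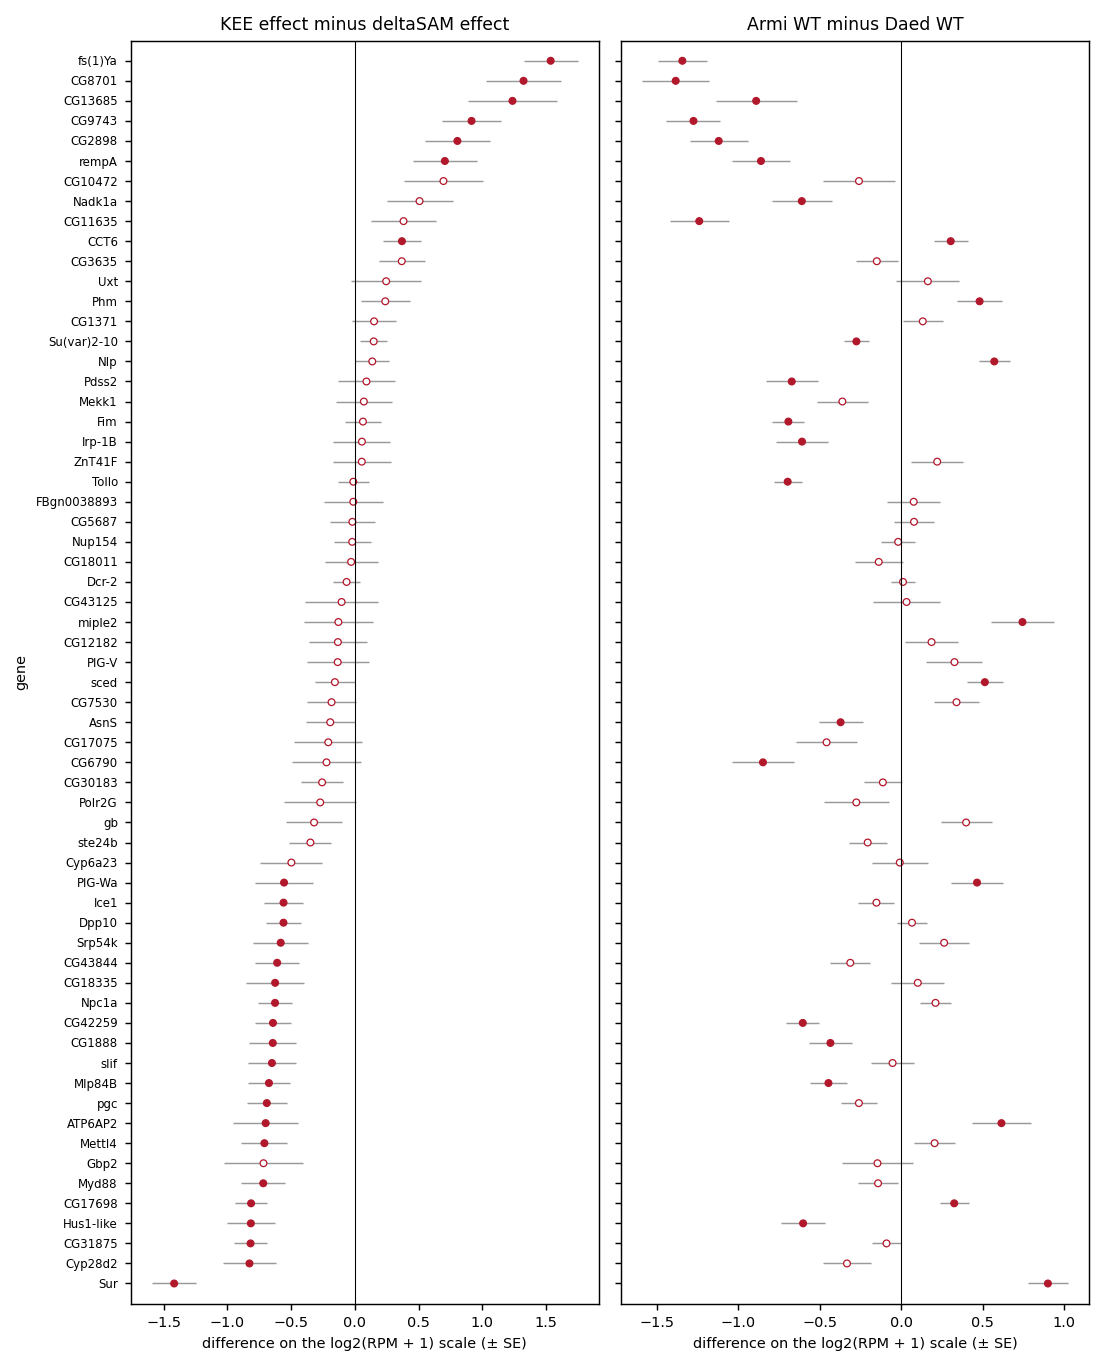
Difference of the log2 effects (left) and log2 difference between the WT groups (right) for each of the 62 genes, as estimate ± SE on the log2(RPM + 1) scale, ordered by the left panel; filled points passed an adjusted p under 0.05 (limma). On the left 7 filled points lie above 0, led by fs(1)Ya at 1.54, and 20 below, ending with Sur at -1.42; on the right 9 lie above 0 and 19 below.

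The WT groups of the experiments were compared with each other as well, which the rule did not do. Knocked-down gene, rescue plasmid and any batch cannot be told apart in this contrast. It shares the WT libraries with the difference of the effects, where they enter with the opposite sign, so the 2 sets of values are given side by side and not against each other. With Armi WT 19 of the 62 genes were lower than with Daed WT, where 6.35% of all tested genes were called lower, and 9 were higher, where 18.9% were called higher, so that 28 were called in either direction against 25.3% of all tested genes. The WT libraries also entered the ratios that chose the genes. The median was -0.14 over the 62 genes, 0.03 over all tested genes and 0.31 over tested genes that met the floor of 20 RPM. The tested genes went down to 1 RPM, so their shares are not matched to the 62 genes in level. Among genes of at least 10 RPM in at least 3 libraries, 11.1% were lower and 36.5% higher. In that fit 21 of the 62 genes were lower and 11 higher. Scaled to the gene-table total, 36 were lower and 1 was higher, and the median of all genes moved to -0.25 and that of the 62 to -0.48. Centred on the median gene, 17 were lower and 12 higher.

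fs(1)Ya averaged 46.8 ± 10.7 RPM with Armi WT and 119 ± 5.23 RPM with Daed WT (mean ± SD, n = 3), a log2 difference of -1.34 ± 0.15 (SE; adjusted p = 2.75e-08, limma). CG9743 averaged 34.6 ± 2.90 RPM with Armi WT and 85.7 ± 12.7 RPM with Daed WT, and its difference was -1.28 ± 0.17 (adjusted p = 4.05e-07, limma). Tollo averaged 321 ± 12.1 RPM with Armi WT and 522 ± 42.2 RPM with Daed WT, with a difference of -0.70 ± 0.09 (adjusted p = 1.53e-07, limma). Its mutant groups differed likewise, with 165 ± 4.34 RPM with KEE and 272 ± 17.3 RPM with deltaSAM. Fim (FBgn0024238, dm6 X:17285704-17301929) gave 105, 111 and 97.9 RPM with KEE, against 263, 216 and 235 RPM with Armi WT. In the Daed experiment Fim gave 172, 169 and 147 RPM with deltaSAM, against 409.8, 393 and 353 RPM with Daed WT. Every Armi WT library of Fim lay below every Daed WT library, and the WT difference was -0.69 ± 0.10 (adjusted p = 1.54e-06, limma). CG11635 and CG8701 were also lower with Armi WT, by -1.24 ± 0.18 (adjusted p = 2.73e-06) and -1.39 ± 0.21 (adjusted p = 3.58e-06, limma).

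Higher with Armi WT was Sur, at 133 ± 9.90 RPM with Armi WT and 71.2 ± 8.86 RPM with Daed WT, a difference of 0.90 ± 0.12 (adjusted p = 1.10e-06, limma). Nlp averaged 518 ± 74.2 RPM with Armi WT and 346 ± 9.46 RPM with Daed WT, with 0.57 ± 0.09 (adjusted p = 2.02e-05, limma). sced averaged 160.3 ± 16.4 RPM with Armi WT and 112 ± 9.34 RPM with Daed WT, with 0.51 ± 0.11 (adjusted p = 7.06e-04, limma). miple2 averaged 42.4 ± 5.16 RPM with Armi WT and 25 ± 3.80 RPM with Daed WT, with 0.74 ± 0.19 (adjusted p = 0.00362, limma). Nlp, sced and miple2 lost the call when values were scaled to the gene-table total, and Sur kept it. Dcr-2 averaged 950.2 ± 48.5 RPM with Armi WT and 943 ± 26.6 RPM with Daed WT, with 0.01 ± 0.08 (adjusted p = 0.946, limma). By role the calls came to 3 of 4 cytoskeleton and cilia genes lower and 1 higher, 4 of 6 metabolic genes lower, 8 of 23 CG genes lower and 1 higher, and 3 of 10 nuclear genes lower and 1 higher. Of the folding and processing genes 4 of 9 were higher, of the signalling genes 1 of 5 was lower and 1 higher, and of the transport genes 1 of 5 was higher. Over all tested genes 6.35% were lower and 18.9% higher. Over genes of at least 10 RPM in at least 3 libraries it was 11.1% and 36.5%.

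The rule was also run on 2 replicates of each group, and the ratios were then read in the replicate left out. It found 60 genes without replicate 1, 67 without replicate 2 and 53 without replicate 3, of which 53, 59 and 46 were among the 62. In the replicate left out both ratios were below 1 in 59, 66 and 52 of them, or 98.3%, 98.5% and 98.1%. Of all genes at the same level both ratios were below 1 in 14.1%, 14.4% and 15.7%. The exceptions were Lfg, CG32278 and Idgf3, which are not among the 62. Both ratios were at most 0.6 in the left-out replicate for 61.7%, 59.7% and 81.1% of the chosen genes, against 2.14%, 2.07% and 3.18% of all genes at that level. Replicate numbers do not pair libraries across groups, so the left-out libraries form an arbitrary set, and the counts describe only libraries of this study. Genes at or below 0.6 in 2 replicates were likely to be below 1 in the replicate left out. The counts thus show agreement within groups and do not test the choice.

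The genes lay on all large chromosome arms. Of the 61 with coordinates 20 were on 2R (32.8%), 14 on 3R (23.0%), 11 each on 2L and 3L (18.0%) and 5 on X (8.20%), with 0 on chromosome 4. Of 2589 genes at the floor with coordinates 20.0% were on 2R, 21.8% on 3R, 17.3% on 2L, 19.5% on 3L, 19.7% on X and 1.66% on chromosome 4. The median gene span was 3804 bp for the 61 genes and 5687 bp for the 2589 genes, and spans over 10000 bp made up 11.5% and 31.1%. A CG number as symbol was held by 36.1% of the 61 genes and by 21.5% of the 2589. These are descriptions without a test. The closest pair was CG11635 and CG8701 on 2R, 11600 bp apart, and the next were Sur and Npc1a on 2L, 14694 bp apart, and PIG-V and ste24b on 2R, 41301 bp apart.

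CG11635 and CG8701 both overlap pdm3, a transcription factor gene. pdm3 itself averaged 105.9 ± 3.68 RPM with deltaSAM and 107.6 ± 5.84 RPM with Daed WT, and 192 ± 1.72 RPM with KEE and 77.8 ± 2.63 RPM with Armi WT. The means of CG11635 and CG8701 were lower with KEE than with Armi WT, while that of pdm3 was higher. In all, 33 of the 61 genes overlapped another annotated gene, and the strand setting of the counting is not given in the sources used here, so reads of overlapping genes cannot be told apart with certainty. Within 2000 bp or overlapping stood neighbours of at least 20 RPM with a name the rule allows, in 31 pairs with 27 of the genes, and 0 of these neighbours met both limits, which 2.37% of the 2615 genes did. The ribosomal protein gene RpL9 beside Nup154 was left out by its name. Their median ratio was 0.984 with deltaSAM and 1.91 with KEE, and 14 of the 31 were above 1 with deltaSAM and 22 with KEE. Over the 2615 genes the medians were 1.14 and 1.37, and 61.4% were above 1 with deltaSAM and 66.5% with KEE. Dcr-2 overlaps Rab4, a vesicle transport gene, whose ratios were 1.44 with deltaSAM and 0.437 with KEE. fs(1)Ya lies 127 bp from fs(1)Yb, which encodes the core protein of Yb bodies and had ratios of 0.765 with deltaSAM and 0.384 with KEE. CG31875 overlaps SoYb, a Tudor protein gene of the piRNA pathway with ratios of 0.552 with deltaSAM and 0.729 with KEE. Near-copies may share reads too, such as Cyp6a23 with its neighbour Cyp6a17 at 0.710 with deltaSAM and 0.475 with KEE.

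**Figure D5:**
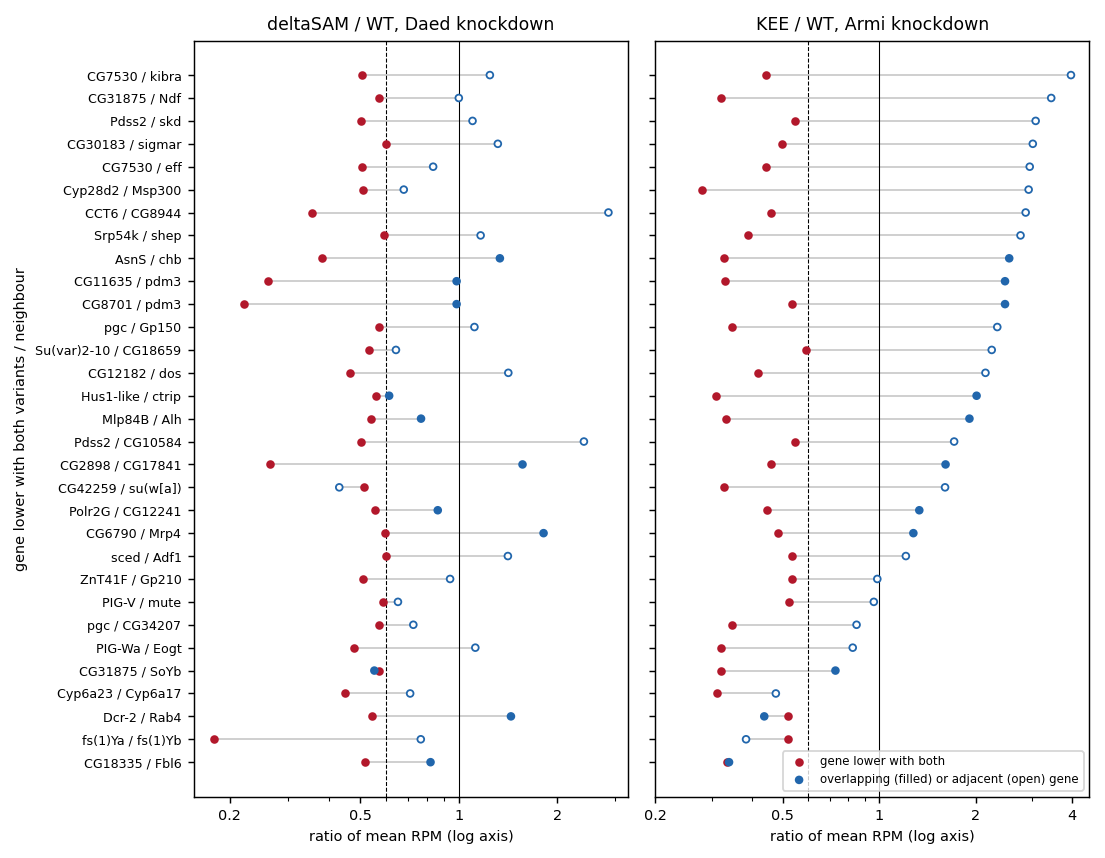
Ratios of mean RPM (log x axes) for 27 of the 62 genes (dark red) and their neighbours of at least 20 RPM, with a name the rule allows, in 31 pairs (blue, filled where the genes overlap, open where they lie within 2000 bp), with deltaSAM over WT left and KEE over WT right. The neighbours spread around 1 with deltaSAM (median 0.984) and mostly above 1 with KEE (median 1.91), and 0 of them lie at or below 0.6 (dashed) in both panels.

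Genes were also followed in lists by function, which were drawn up with earlier results of these data known. Over all tested genes 18.9% were called lower and 17.3% higher with deltaSAM, and 11.7% lower and 33.0% higher with KEE, and the counts that follow stand against these shares. In the siRNA and microRNA machinery 6 of 15 tested genes were called lower and 5 higher with deltaSAM, and 4 lower and 7 higher with KEE (limma, adjusted p under 0.05), with median log2 changes of -0.23 and 0.19. Dcr-2 was the only member of the 62 among them, Dcr-1 and Ranbp21 were also lower in both, and its partner r2d2 was higher in both, by 0.91 ± 0.11 with deltaSAM and 1.04 ± 0.11 with KEE (log2, SE). In the SUMO pathway 5 of 9 were lower and 2 higher with deltaSAM, and 2 lower and 5 higher with KEE (medians -0.46 and 0.37). Besides Su(var)2-10 the SUMO conjugating enzyme gene lwr was lower in both. Of 12 amino acid transporters 3 were lower and 3 higher with deltaSAM, and 4 lower and 1 higher with KEE (medians -0.37 and -0.51), and slif and gb were the ones lower in both. Among germ plasm and maternal RNA regulators 1 of 18, pgc, was lower with deltaSAM and 9 were higher, with 4 lower and 4 higher with KEE (medians 0.42 and -0.10).

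In the remaining lists, of 8 egg activation genes 2 were lower and 2 higher with deltaSAM, and 1 lower and 3 higher with KEE (medians 0.09 and 0.31), with fs(1)Ya alone lower in both. Of 17 innate immunity genes 2 were lower and 2 higher, and 3 lower and 5 higher (medians 0.01 and 0.54), with Myd88 alone lower in both. None of the 62 was on the list of 19 piRNA factors of the soma (4 lower and 7 higher with deltaSAM, 3 lower and 7 higher with KEE, medians 0.10 and 0.18), though fs(1)Yb and SoYb were lower in both. Neither that list nor the list of chromatin modifiers includes Su(var)2-10 or Nlp, and Su(var)2-10 was counted in the SUMO pathway. The 62 also held no gene of the list of DNA replication and repair genes, which does not include Hus1-like (4 lower and 3 higher of 28 with deltaSAM, 1 and 10 with KEE, medians -0.15 and 0.32) or of the list of chromatin modifiers (6 lower and 10 higher of 29, 1 and 18, medians 0.08 and 0.84). They held none of 67 listed oxidative phosphorylation genes (24 lower and 4 higher with deltaSAM, 0 lower and 16 higher with KEE, medians -0.35 and 0.26). Against all tested genes, a larger share of these 67 was called lower with deltaSAM and a smaller share with KEE. The share called higher was smaller with either variant. Over all tested genes the medians were -0.10 with deltaSAM and 0.30 with KEE. Centring libraries on the median gene moved these to 0.09 and -0.0027, and those of the 62 genes to -0.71 with deltaSAM and -1.58 with KEE, so the list counts hold for the deposited scale. Under that centring Ranbp21 and fs(1)Yb kept their direction and lost the deltaSAM call, and Ranbp21 also lost it with TMM and DESeq2 scaling, while r2d2, Dcr-1, lwr and SoYb kept their calls under every scaling tried.

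The limits cut through a continuous range. Just inside by the larger of the 2 ratios were rempA at 0.595, CG30183 at 0.598 and sced at 0.599. Just outside were Lrrk, a kinase gene, at 0.604, the clathrin adaptor gene AP-2mu at 0.606 and CG4570 at 0.606. AP-2mu averaged 225 ± 18.6 RPM with deltaSAM and 372 ± 21.8 RPM with Daed WT, and 149.8 ± 14.3 RPM with KEE and 392 ± 8.01 RPM with Armi WT.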

How the data were processed

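The authors deposited a table of 17469 genes by 12 libraries in RPM, reads scaled to the library total, per the file headers. Multiplied by the library totals, 100% of the deposited RPM values were within 0.01 of a whole read. Per the submitters' processing notes, STAR and HTSeq were used with BDGP6 and dm6, and no version is stated. How reads were assigned to strands or shared between genes is not given in the sources used here. A RefSeq gene table supplied symbols and dm6 positions, and 17341 gene identifiers (99.3%) had a symbol. A deposited transposon table was not used. The library totals ran from 1396369 to 3995009 reads, and counting error is largest for the lowest values. The floor of 20 RPM applied to the higher group of each pair only. The lowest mean of the chosen genes was 2.61 RPM with deltaSAM and 3.60 RPM with KEE.

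The genes and the gene lists were chosen with earlier results of these data known. The rule used group means of the deposited RPM, so its 2 contrasts carry no test for these genes. Tests used limma-trend on log2(RPM + 1), all 12 libraries in 1 fit, genes of at least 1 RPM in at least 3 libraries (8246), and Benjamini-Hochberg adjustment over all of them at 0.05. Changes on this scale are understated for low genes. The fit was tested on simulated data with planted changes, where false calls for deltaSAM against Daed WT exceeded the nominal rate. All simulated libraries were given the same spread, unlike the sequenced ones, so the error rate of the real calls was not measured. Named were the 10 genes with the lowest geometric mean of both ratios, the 6 with the highest RPM, every gene on a list, the 4 with the lowest p per direction in each tested contrast, those at the limit and those next to another. Others are given by role only, or as chosen after their values were seen.

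Alternatives were other limits, pseudocounts, filters and scalings, a replicate block, edgeR and DESeq2 on the recovered reads, and each library left out. Models ran in R 4.3.3 with DESeq2 1.42.0, edgeR 4.0.16 and limma 3.58.1. Tables and figures were made in Python 3.11.15 with pandas 2.3.3, matplotlib 3.10.9 and numpy 2.4.6.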

Additional observations from a re-analysis of the deposited data

Results flagged for a closer look

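For 15 of the named genes the effect of KEE differed from the effect of deltaSAM, each against its own WT group, by a test of the difference itself (limma on log2(RPM + 1), adjusted p under 0.05 over 8246 genes). In all tested genes 40.4% were called in this contrast, so such a call is common in these libraries. Sur, CG31875, CG17698, Npc1a, fs(1)Ya, CG8701, CG13685 and CG9743 had the lowest p per direction among the 62 genes in this contrast. That was itself a ground for naming a gene. The count of 15 is thus partly set by the naming and cannot be weighed against the share of all tested genes. The tested values come from the libraries and ratios that chose the genes, with both effects bounded by the rule, so the calls are not independent of the choice. The reduction was deeper with KEE at Sur (-1.42 ± 0.18, SE), CG31875 (-0.82 ± 0.13), CG17698 (-0.81 ± 0.13), Myd88 (-0.72 ± 0.17), pgc (-0.69 ± 0.16), slif (-0.65 ± 0.19), Npc1a (-0.63 ± 0.14), CG43844 (-0.61 ± 0.17), Dpp10 (-0.56 ± 0.13) and Ice1 (-0.56 ± 0.16). It was deeper with deltaSAM at fs(1)Ya (1.54 ± 0.21), CG8701 (1.32 ± 0.29), CG13685 (1.24 ± 0.35), CG9743 (0.92 ± 0.23) and rempA (0.71 ± 0.25). Of these 5, CG8701 lost its call after centring on the median gene (adjusted p = 0.0622, limma), CG13685 and CG9743 lost theirs after centring and with TMM and DESeq2 scaling, and rempA lost its call in 9 of 23 alternatives. At fs(1)Ya, CG8701, CG13685, CG9743 and rempA the mutant means of both experiments were close and the WT means were apart. CG9743 averaged 18.6 ± 4.54 RPM with KEE and 23.8 ± 3.35 RPM with deltaSAM, against 34.6 ± 2.90 RPM with Armi WT and 85.7 ± 12.7 RPM with Daed WT. At Sur both the mutant and the WT means were apart, with 29.0 ± 0.958 RPM with KEE and 42.2 ± 4.51 RPM with deltaSAM, against 133 ± 9.90 RPM with Armi WT and 71.2 ± 8.86 RPM with Daed WT.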

How the results depend on the processing

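The rule itself gave 19 genes at a ratio limit of 0.5, 110 at 0.7, 34 at a floor of 50 RPM, 90 at a floor of 10 RPM and 64 with group medians (53 of them shared with the 62). Scaled to the gene-table total it gave 123 genes, all 62 among them, and centred on the median gene 49, with 30 shared. Leaving out 1 library at a time gave 54 to 66 genes, and leaving out replicate 3 of deltaSAM and of Armi WT gave 53. All 62 were called lower in both pairs under every alternative of the fit (62 to 62 with 1 library left out). For the difference of the effects, members called higher were 1 after centring, 2 with TMM factors, 2 with DESeq2 and 12 without replicate 3 of deltaSAM and of Armi WT, and members called lower were 44, 42, 38 and 20. With 1 library left out they were 5 to 9 higher and 16 to 20 lower. For Armi WT against Daed WT, scaling to the gene-table total gave 1 higher and 36 lower, and leaving out 1 library gave 6 to 10 higher and 16 to 22 lower. Over all genes the calls with 1 library left out were 2598 to 2971 for deltaSAM, 3199 to 3860 for KEE, 2949 to 3411 for the difference and 1753 to 2281 between WT groups. The causes of these shifts beyond the change of scale, limit or sample number were not tested.

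CG17698, higher with Armi WT than with Daed WT by 0.32, was at -0.0120 when scaled to the gene-table total. Su(var)2-10, lower with Armi WT by -0.28, had an adjusted p of 0.0689 without replicate 1 of Daed WT and 0.0775 after centring (limma). Of the named genes with no call for the difference, 12 of 12 were called in at least 1 of 23 alternatives and 9 changed sign in at least 1.

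Replicate numbers did not pair the samples: deviations of same-numbered libraries correlated at -0.03 to 0.08. With a replicate block, 7 of the 62 were higher and 19 lower for the difference, 9 higher and 20 lower between WT groups, and 62 lower in each pair.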
